A study of Mus musculus with 9 samples.

Results

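Merkel cells of newborn mouse epidermis were compared with basal keratinocytes represented by the second of their sets of libraries alone. The study sorted cells from the skin of Sox2-GFP mice at postnatal day 0, in which green fluorescent protein reports the Sox2 gene, and sequenced their total RNA. GFP-positive cells were the Merkel cells, and GFP-negative cells that carried SCA1 and CD49F on their surface were the basal keratinocytes. Each of 3 sample numbers had 1 Merkel library, 1 first basal library and 1 second basal library. The comparison used 6 of the 9 libraries: the 3 Merkel libraries and the 3 second basal libraries, paired by sample number. The first basal libraries stayed out of the test and their values are given beside it. All groups share the reporter allele, the age and the tissue. What sets the first basal libraries apart from the second is not stated in the labels, nor is whether a number stands for 1 animal or several, so p-values measure only the spread between sample numbers, which may be technical in part. The reporter marks cells that express Sox2, and dermal papilla cells of some hair follicles are also known to express it.

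Values are TPM, transcript levels per length with 1 common total for all libraries. Of 49672 rows in the table, 13724 reached 1 TPM in at least 3 of the 6 libraries and were tested. Just inside that filter, 240 tested genes had a third-highest value from 1 to 1.1 TPM, and 270 genes at 0.9 to 1 TPM fell outside it. Because TPM does not retain depth, the reads behind each value are unknown. Between 13012 and 13575 genes reached 1 TPM in the Merkel libraries and between 13043 and 13296 in the second basal libraries. Small RNA genes held 40.8% to 51.6% of the TPM total in Merkel libraries, highest in number 2, and 41.2% to 43.9% in second basal libraries. Correlations of log2(TPM + 1) across tested genes were 0.977 to 0.984 between Merkel libraries, 0.963 to 0.985 between second basal libraries and 0.887 to 0.904 between the groups. These correlations are across genes, which are not independent replicates.

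Merkel cells are touch receptor cells at the base of the epidermis that arise from the keratinocyte lineage. They are specified by the transcription factor Atoh1, carry simple epithelial keratins such as Krt8, Krt18 and Krt20, open the mechanically gated channel Piezo2 and signal to sensory nerve endings through vesicles that hold neuropeptides and transmitters. Basal keratinocytes are the dividing cells on the basement membrane, held there by Krt5 and Krt14 filaments, hemidesmosomes and integrins.

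The markers matched the labels of the sort. Atoh1 stood at 103.94, 99.49 and 121.37 TPM in the Merkel libraries of numbers 1, 2 and 3 and at 0.09, 0.05 and 0.11 TPM in the second basal libraries. Krt8 stood at 398.11, 340.01 and 467.07 TPM against 1.23, 1.76 and 2.19. Sox2 stood at 52.35, 44.89 and 53.11 TPM against 0.16, 0 and 0.10. For all of these genes every Merkel library lay far above every second basal library. Of all 13724 tested genes, 2066 lay entirely above. The log2 fold changes were 6.65 ± 0.13 for Atoh1, 7.21 ± 0.14 for Krt8 and 5.55 ± 0.13 for Sox2 (SE, n = 3 pairs, limma adjusted p = 1.6e-10, 1.6e-10 and 6e-10). Atoh1 and Sox2 were tested only through the Merkel libraries, so the filter set their direction. The sort also chose cells by a Sox2 reporter. The p-values of Atoh1 and Sox2 therefore lend the labels no support. Krt14, the basal keratin, stood at 2130.75, 2106.39 and 2323.76 TPM in Merkel libraries and 6278.07, 7136.65 and 6626.8 TPM in second basal libraries. Krt14 fell by 1.61 ± 0.17 on the log2 scale (adjusted p = 2.7e-05). Its mean of 2187 ± 119 TPM in Merkel libraries (SD, n = 3) stood 3.05-fold under the second basal mean. In bulk libraries of this kind, fewer cells of a type and less RNA per cell cannot be told apart.

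The genes behind the gate moved to different degrees. Itga6, which encodes CD49F, stood at 105.09, 78.34 and 109.44 TPM in Merkel libraries against 272.52, 218.89 and 268.16 TPM, without overlap (log2 fold change -1.37 ± 0.12, adjusted p = 1e-05). Of all 13724 tested genes, 5122 lay entirely below in the same way. The SCA1 gene Ly6a stood at 6.78, 13.57 and 21.8 TPM in Merkel libraries against 17.06, 22.28 and 24.02 TPM. The Ly6a groups overlapped, and its log2 fold change of -0.68 ± 0.18 (adjusted p = 0.011) did not reach the size for a call. In the first basal libraries Ly6a was at 26.33, 45.37 and 44.67 TPM. Against those it was called lower in Merkel cells (-1.50 ± 0.17, limma adjusted p = 0.00042). EGFP, the reporter transcript, stood at 221.91, 178.26 and 246.8 TPM in Merkel libraries and at 17.1, 13.43 and 18.29 TPM in second basal libraries, a log2 fold change of 3.65 ± 0.12 (adjusted p = 5.3e-09). In the first basal libraries EGFP was at 3.72, 1.73 and 2.96 TPM. Every second basal library thus lay above every first basal library for the reporter, by 2.21 ± 0.12 on the log2 scale (limma adjusted p = 0.011), while Sox2 itself was at or under 0.16 TPM in all 6 basal libraries. In the test of second against first, 0 genes had an adjusted p under 0.05 without number 1, and 1 had without number 3.

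**Figure D1:**
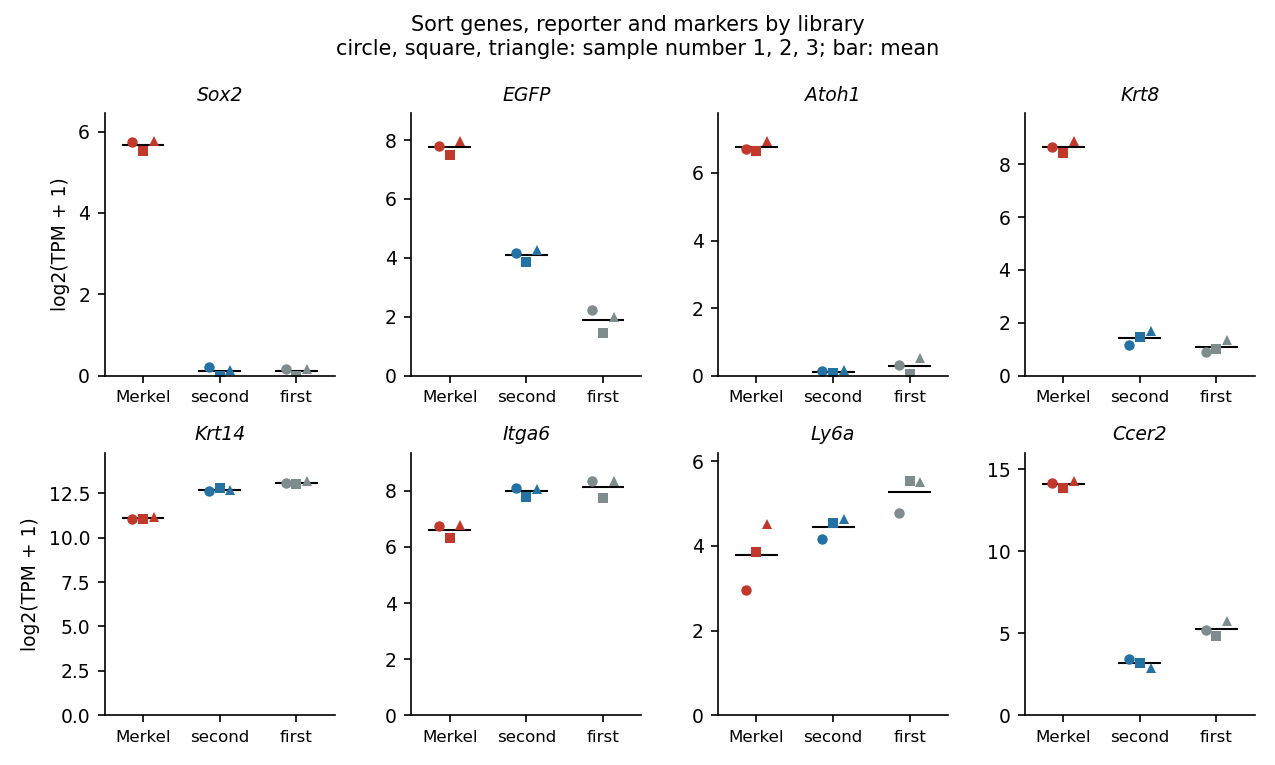
Level of the sort genes, the reporter and markers in each library, as log2(TPM + 1) on the vertical axis, with points for sample numbers 1, 2 and 3 and a bar at the group mean for Merkel, second basal and first basal libraries (n = 3 each). Atoh1, Krt8, Sox2 and Ccer2 were high in Merkel libraries alone, EGFP was intermediate in the second basal libraries (13.43 to 18.29 TPM), and Ly6a overlapped between Merkel and second basal libraries.

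Merkel cells had 906 genes higher and 719 lower than the second basal libraries. Calls needed a limma adjusted p under 0.05 together with a difference of at least 1 on the log2 scale, so 6.6% of tested genes were called higher and 5.24% lower. Whatever the fold, 6448 of the 13724 tested genes had an adjusted and 7393 an unadjusted p under 0.05. The upward changes were larger: 356 genes rose by 2 or more on the log2 scale and 145 by 3 or more, while 14 genes fell by 2 or more and 5 by 3 or more. The median was 1.73 among genes called higher and -1.19 among genes called lower. All 3 Merkel libraries lay on 1 side of all 3 second basal libraries for 881 higher genes and 710 lower genes, as they did for 52.4% of all tested genes. That background was uneven, with 2066 tested genes entirely above and 5122 entirely below, and over all tested genes the median difference was -0.16 on the log2 scale. Median-ratio scaling moved that median to 0.03 and gave 1054 genes higher and 388 lower, so the share of calls that were higher went from 55.8% to 73.1%. Changes downward near the threshold therefore have to be read against the median of all genes. The filter itself set many upward calls: 646 genes were tested only because all 3 Merkel libraries reached 1 TPM while no second basal library did, and 524 of them were called higher. In the reverse case 396 genes were tested only through the second basal libraries, and 108 of them were called lower. Protein-coding genes made up 854 of the calls upward and 550 of those downward, and long non-coding RNAs 22 and 60.

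**Figure D2:**
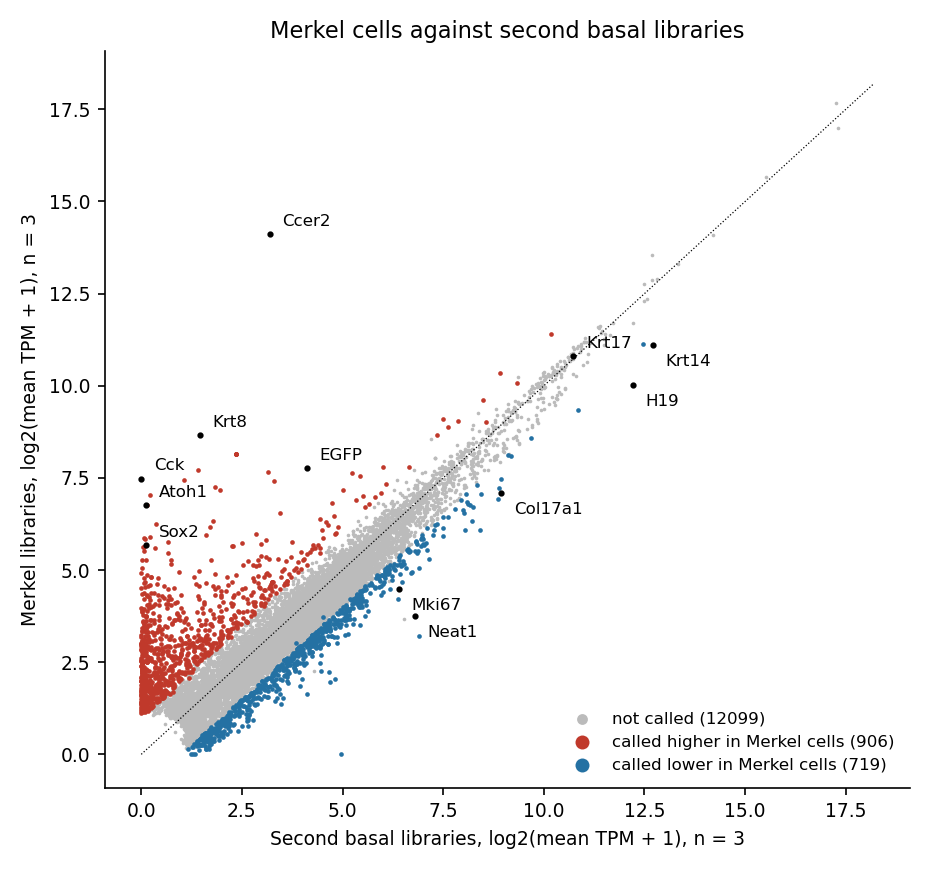
Mean level of each tested gene in second basal libraries (horizontal) and Merkel libraries (vertical), as log2(mean TPM + 1), with 906 genes called higher in red, 719 called lower in blue and the line of equal levels dotted. Genes such as Ccer2, Cck and Krt8 lie far above the line at low basal levels, whereas the lower genes lie below it, most within 2 units, with Neat1 at -3.05 and Mki67 at -1.94.

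Ccer2, which encodes a secreted coiled-coil protein, changed most among the genes that passed the naming rule. It stood at 18309.42, 15077.85 and 19972.63 TPM in Merkel libraries and 9.86, 7.98 and 6.49 TPM in second basal libraries. The means of 17787 ± 2489 and 8.11 ± 1.69 TPM (SD, n = 3) differ 2193-fold, a log2 fold change of 10.94 ± 0.16 (adjusted p = 3.4e-11). The gene lies on chr7:28756174-28758968 of build GRCm38, plus strand, and shares bases with Nfkbib on the other strand, whose mean was 9 TPM in Merkel and 10.9 TPM in second basal libraries. In the first basal libraries Ccer2 was at 36.37, 27.18 and 53.2 TPM, above every second basal library, and second minus first was -2.10 ± 0.26 (adjusted p = 0.016). Its fold change was thus 8.84 against the first basal libraries.

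Atoh1 and related proneural factors bind E-box letters, among them CAGCTG. In the RefSeq promoter table (GRCm38.p6; 250 bases before to 50 after each start; both strands searched), CAGCTG was found in 16.3% of all 32851 promoters and in 15.2% of the promoters of tested genes. It was found in 180 of 852 promoters of genes called higher (21.1%) and in 92 of 567 of genes called lower (16.2%). Of 13721 tested symbols, 9971 matched the table. These shares are a description of letters in a window and were not tested. The 250 bases before the start of Ccer2, the gene with the largest change, and of Chga, a granin with a pair of such matches, show where the letters lie. Both windows hold the letters, unlike most promoters of genes called higher, so they are not typical of that group. They are printed on the strand of the gene, 5′ to 3′, with CAGCTG in capitals.
Ccer2, chr7:28755924-28756173, plus strand: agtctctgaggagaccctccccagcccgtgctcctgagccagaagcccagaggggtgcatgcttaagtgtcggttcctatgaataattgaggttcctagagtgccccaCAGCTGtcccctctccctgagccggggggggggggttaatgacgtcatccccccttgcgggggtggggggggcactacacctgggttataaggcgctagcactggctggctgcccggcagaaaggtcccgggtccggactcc
Chga, chr12:102554691-102554940, plus strand: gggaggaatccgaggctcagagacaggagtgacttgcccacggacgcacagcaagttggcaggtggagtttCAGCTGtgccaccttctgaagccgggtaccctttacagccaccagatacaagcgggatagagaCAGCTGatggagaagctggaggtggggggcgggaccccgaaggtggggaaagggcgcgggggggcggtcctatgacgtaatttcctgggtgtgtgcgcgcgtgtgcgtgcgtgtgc
In Ccer2 the match begins 142 bases before the start, and in Chga the matches begin 179 and 116 bases before it.

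Of 30 listed neurogenic and endocrine transcription factors, 14 were tested, 12 rose and none fell. Of those 14, 11 were tested only through the Merkel libraries, so their passing the filter already set their direction, and the count describes the levels without supporting a change of the list; the other 16 were too low to be tested. Pou4f3, a POU factor of hair cells and sensory neurons, stood at 142.84, 107.72 and 141.71 TPM against 0.21, 0.2 and 0.07 TPM (log2 fold change 6.82 ± 0.15). Lhx3, a LIM homeobox factor, stood at 55.32, 36.35 and 54.22 TPM against 0.05, 0 and 0.03 TPM (5.57 ± 0.15). Isl1, Insm1, Gfi1, Myt1 and Nhlh1 rose by 5.24, 5.14, 4.57, 4.33 and 4.13. Rest, the repressor of neuronal genes, was at -0.86 and Sox4 at -0.34, and neither was called. Neurod4, Neurog1, Lhx1 and Scrt2 were at 0 in every library of both groups.

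All 5 simple epithelial keratins rose, with a median of 5.78. Krt18, the partner of Krt8, stood at 172.81, 146.73 and 197.11 TPM against 1.21, 0.66 and 1.33 TPM (log2 fold change 6.39 ± 0.13). Krt20, a keratin used to stain Merkel cells, stood at 55.16, 49.51 and 67.94 TPM against 0.07, 0.05 and 0.04 TPM (5.78 ± 0.14). Krt20 was tested only through the Merkel libraries, so the filter set its direction. Krt19 and Krt7 rose by 4.30 and 3.22. Merkel library 3 held most of the Krt19 signal, at 44.72, 42.11 and 153.5 TPM in numbers 1, 2 and 3. Krt13, a keratin of internal stratified epithelia outside that list, stood at 114.31, 106.67 and 405.65 TPM against 1.92, 1.21 and 1.82 TPM (6.03 ± 0.28). Merkel library 3 held most of the Krt13 signal, and all 3 Merkel libraries lay above the second basal ones, which the naming rule required.

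Of 18 listed granins and prohormone enzymes, which serve peptide secretion, 12 were tested and 11 rose. The filter set the direction of 8 of the 12, which were tested only through the Merkel libraries. Chga, a granin of dense-core vesicles, stood at 67.82, 42.06 and 59.39 TPM against 0.05, 0.05 and 0.09 TPM (log2 fold change 5.73 ± 0.16). Cpe, the carboxypeptidase that trims prohormones, stood at 221.7, 162.76 and 216.46 TPM against 8.63, 7.27 and 7.72 TPM (4.49 ± 0.13). The prohormone convertases Pcsk1 and Pcsk2 rose by 3.87 and 1.90. The monoamine transporter Slc18a2, at -0.21, was the tested member that was not called.

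Of 16 listed neuropeptide genes 9 were tested and 7 rose, 6 of the 9 tested only through the Merkel libraries. Cck, cholecystokinin, stood at 153.55, 169.71 and 207.21 TPM in Merkel libraries and was listed at 0 in all 3 second basal libraries, so no fold is given; its difference on the log2(TPM + 1) scale was 7.46 ± 0.14. Penk, proenkephalin, stood at 202.93, 166.66 and 186.85 TPM against 49.76, 41.59 and 35.29 TPM (log2 fold change 2.12 ± 0.13). Penk was thus well above 0 in both groups, which did not overlap, as for 52.4% of all tested genes. Sst, Calcb, Adcyap1, Gal and Calca rose by 3.06, 2.91, 1.77, 1.74 and 1.65, while Npy at 0.25 and Nmb at -0.28 were not called. Vip was at 0 in all 6 libraries.

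Of 38 listed genes of synaptic vesicles and release 23 were tested, 18 rose and none fell, and 16 of the 23 were tested only through the Merkel libraries. Syn2, a synapsin that tethers vesicles, stood at 22.07, 22.25 and 28.57 TPM against 0.06, 0.07 and 0.04 TPM (log2 fold change 4.57 ± 0.15). Within the Rab3 family of vesicle GTPases, Rab3b rose by 4.80 ± 0.16 and Rab3c by 3.92 ± 0.14. Rab3d stood at 38.07, 39.51 and 31.96 TPM against 32.45, 46.25 and 28.09 TPM, with overlapping groups and a log2 fold change of 0.06 ± 0.13. Rab3a, at 0.74, was not called.

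Among mechanosensitive channels, Piezo2 stood at 20.33, 12.42 and 20.41 TPM in Merkel libraries against 2.33, 0.93 and 1.79 TPM (log2 fold change 2.81 ± 0.14, adjusted p = 9.3e-08). Piezo1, its relative, stood at 4.91, 2.85 and 4.1 TPM against 9.13, 7.81 and 10.73 TPM (-1.06 ± 0.15, adjusted p = 0.0002), and it lost its call with median-ratio scaling (-0.88) and without number 2 or number 3 (-0.99 each). The libraries of both PIEZO genes did not overlap between the groups, in opposite directions, and 52.4% of all tested genes did not overlap either. The other 4 tested members of the 12 listed, Tmem63a, Tmem63b, Kcnk2 and Trpv4, were at -0.49 to -0.82 without a call.

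Of 18 listed voltage-gated calcium channel genes 9 were tested and 5 rose, 4 of the 9 tested only through the Merkel libraries. Cacna2d1, an auxiliary subunit, stood at 19.4, 14.55 and 20.5 TPM against 0.11, 0.17 and 0.16 TPM (4.05 ± 0.15), and the pore subunits Cacna1a, Cacna1b and Cacna1e rose by 1.59, 1.46 and 1.02, of which Cacna1e lost its call without number 1 (0.98) or number 3 (0.94). Cacnb3, a beta subunit, was similar in level, at 19.71 to 26.77 TPM in Merkel libraries and 25.63 to 28.66 TPM in second basal libraries. Of 30 listed potassium channel genes 11 were tested and 7 rose, and 7 of the 11 were tested only through the Merkel libraries. Kcna4, a voltage-gated channel, stood at 13.86, 11.27 and 12.88 TPM against 0.03, 0.02 and 0.02 TPM (3.74 ± 0.14), and the calcium-activated channel Kcnma1 and its subunit Kcnmb2 rose by 3.25 ± 0.16 and 2.43 ± 0.15.

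Other genes with large changes had varied roles. Hepacam2, an adhesion protein of the immunoglobulin family, rose by 6.61 ± 0.15, Avil, the actin-binding protein advillin, by 5.89 ± 0.14, Aspa, the aspartoacylase enzyme, by 5.67 ± 0.14 and Gc, the vitamin D binding protein, by 5.49 ± 0.18. All were at 0.37 TPM or less in each second basal library and at 30.35 TPM or more in each Merkel library. The filter thus set their direction, since they were tested only through the Merkel libraries. Ntf3, the neurotrophin NT-3, stood at 36.19, 31.42 and 42.82 TPM against 6.19, 4.23 and 5.34 TPM (2.60 ± 0.14). Of 8 tested members of the neurotrophin and GDNF family list 2 rose and 2 fell, beside 6.6% and 5.24% of all tested genes. Among them the GDNF receptor Gfra1 rose by 1.73 and Gdnf fell by 1.19. The filter set the direction of Gfra1, tested only through the Merkel libraries, and of 1 member tested only through the second basal libraries.

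Among lower genes that passed the naming rule, which leaves out pseudogenes and small RNAs, the nuclear long non-coding RNA Neat1 changed most. The other 4 genes that fell by 3 or more were pseudogenes and small RNAs. Neat1 stood at 11.9, 11.69 and 13.97 TPM against 111.23, 123.78 and 99.13 TPM, 8.9-fold lower by the means (log2 fold change -3.05 ± 0.14, adjusted p = 6e-08). H19 and Igf2, neighbouring imprinted genes on chromosome 7, fell together. H19 stood at 1219.57, 604.59 and 1267.14 TPM against 5591.86, 3679.12 and 4890.86 TPM (-2.25 ± 0.17), and Igf2, a growth factor, at 93.14, 52.18 and 94.43 TPM against 324.83, 270.59 and 298.63 TPM (-1.93 ± 0.15). For both, number 2 was the lowest library in each group and the groups did not overlap, which the naming rule required. Irf1, an interferon-regulated transcription factor, fell by 2.24 ± 0.21, Adamts14, a procollagen protease, by 2.19 ± 0.16, Pglyrp4, a peptidoglycan recognition protein, by 2.04 ± 0.17, Slc1a3, a glutamate transporter, by 1.97 ± 0.15 and Sox6, a transcription factor, by 1.92 ± 0.15. Ccn1, a matricellular protein, fell by 1.94 ± 0.17, Fam71a by 2.47 ± 0.15 and Clca3a1 by 2.00 ± 0.15.

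Of 17 basal keratinocyte markers, all tested, 11 were lower in Merkel cells, 6 were not called and none rose, with a median of -1.32. Among all tested genes 5.24% were called lower and 6.6% higher. Col17a1, the hemidesmosomal collagen, stood at 146.06, 112.33 and 148.55 TPM against 514.31, 468.62 and 489.34 TPM (log2 fold change -1.86 ± 0.13). Col7a1, the anchoring fibril collagen, fell by 1.85 ± 0.12 and Itgb4, the partner of Itga6, by 1.80 ± 0.13. The groups did not overlap for these 3 genes, and 5122 of all 13724 tested genes lay entirely below in the same way. Krt5, Dst, Lama3 and Itga3 fell by 1.32, 1.41, 1.37 and 1.24, while Trp63, the p63 regulator of the lineage, was at -0.89, Krt15 at -0.42 and Itgb1 at -0.40, and none of these last 3 was called. Suprabasal genes showed another picture: of 19 tested, 16 were not called, Krt1 stood at 3099.09, 4695.23 and 2284.48 TPM against 3033.74, 4617.9 and 2521.26 TPM, and Sprr1a, Calml3 and Klk7 rose by 1.86 ± 0.23, 1.72 ± 0.26 and 1.01 ± 0.14. Klk7 lost its call without number 2 (0.90) or number 3 (0.95).

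**Figure D3:**
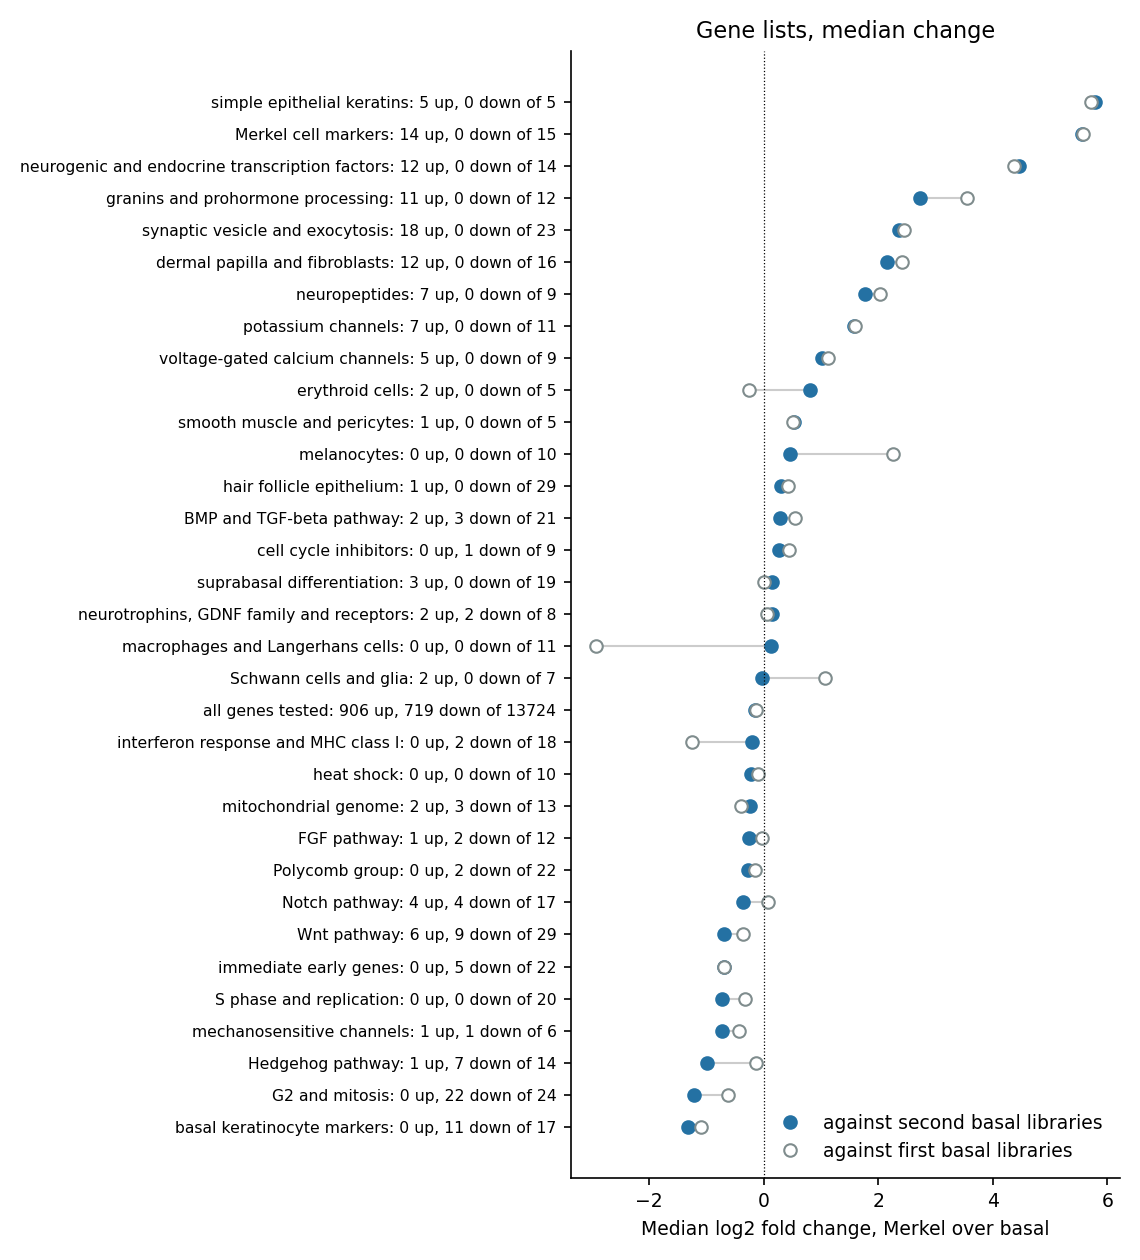
Median log2 fold change of the tested members of each gene list, Merkel over second basal (filled) and Merkel over first basal (open), with the number called higher (up) and lower (down) against the second basal libraries. The Merkel and neurosecretory lists lie between 1.02 and 5.78 with either control, a direction that the filter set for many of their members, while melanocytes, macrophages and Langerhans cells, interferon genes, G2 and mitosis and Hedgehog genes move with the choice of control; both comparisons share the Merkel libraries.

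Mitotic genes were lower in Merkel cells than in the second basal libraries. Of 24 listed genes of G2 and mitosis, all tested, 22 fell and none rose, with a median of -1.22. Mki67, the antigen of cycling cells, stood at 19.8, 17.56 and 26.85 TPM against 86.37, 74.5 and 90.9 TPM (log2 fold change -1.94 ± 0.13, adjusted p = 9.8e-07). Foxm1, the transcription factor that drives mitotic genes, stood at 7.06, 6.3 and 8.18 TPM against 30.53, 24.19 and 29.09 TPM (-1.82 ± 0.13). Top2a, the topoisomerase of condensing chromosomes, stood at 57.46, 65.7 and 76.85 TPM against 149.01, 152.22 and 160.44 TPM (-1.20 ± 0.13). Every Merkel library lay below every second basal library for all 3, as for 5122 of all 13724 tested genes. Bub1b at -1.0, just short of the fold size, and Birc5 at -0.84 were the members without a call. Many members sat near the threshold: 12 of 24 fell with median-ratio scaling and 15 with quantile normalization, and the list median was then -1.01 and -1.06. The 20 replication genes of S phase were all tested and none was called by limma, at -0.45 for Ccne1 to -0.96 for Uhrf1, with a median of -0.73; without number 3, 2 were called lower. All 20 had an adjusted p under 0.05 (and an unadjusted p under 0.05) and fell short of the fold size. Of all 13724 tested genes, 6448 had an adjusted and 7393 an unadjusted p under 0.05. Among 9 tested inhibitors of the cycle, Cdkn2c was at -1.01 ± 0.13, at the edge of a call that ended without number 1 (-0.94), with median-ratio scaling (-0.81), with quantile normalization (-0.83) and without mitochondrial and small RNA genes (-0.95). That 1 call stands beside 5.24% of all tested genes called lower. Cdkn1a stood at 31.01, 33.88 and 32 TPM against 23.59, 32.62 and 24.95 TPM.

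The control mattered for this group. Against the first basal libraries 4 of 24 mitotic genes fell, with a median of -0.63. Top2a was at 85.73, 97.6 and 83.72 TPM in the first basal libraries, between the other groups, and second minus first was 0.79 ± 0.07 (adjusted p = 0.012). Across the 24 genes the median of second minus first was 0.61. Of them, 20 had a limma adjusted p under 0.05 and 24 an unadjusted one, and none reached the size for a call. Over all 14386 genes in that test the median was 0.06, and 2172 had an adjusted and 4798 an unadjusted p under 0.05.

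Promoters of mitotic genes are known to carry the cell cycle homology letters TTTGAA, which were searched after the values were seen. They were found in 17.9% of all promoters in the table, in 12.1% of those of tested genes, in 9.74% of those of genes called higher and in 20.6% of those of genes called lower. In the G2 and mitosis list, 19 of 24 genes matched the table, and 15 of their 20 promoters held the letters (75%). In the 250 bases before the start alone, 8 of the 20 held them (40%), against 16% of all promoters, 10.6% of those of tested genes and 14.8% of those of genes called lower; the other matches lay across or after the start. Those 250 bases are shown for the members with a pair of matches in them, which makes them the richest and not typical of the list, on the strand of the gene, 5′ to 3′, with TTTGAA or its reverse complement in capitals.
Mki67, chr7:135716380-135716629, minus strand: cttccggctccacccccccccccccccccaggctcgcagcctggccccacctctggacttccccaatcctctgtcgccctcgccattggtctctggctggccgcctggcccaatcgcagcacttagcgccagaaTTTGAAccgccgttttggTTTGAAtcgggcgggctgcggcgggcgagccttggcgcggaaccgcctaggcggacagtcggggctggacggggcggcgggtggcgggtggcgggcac
Top2a, chr11:99024190-99024439, minus strand: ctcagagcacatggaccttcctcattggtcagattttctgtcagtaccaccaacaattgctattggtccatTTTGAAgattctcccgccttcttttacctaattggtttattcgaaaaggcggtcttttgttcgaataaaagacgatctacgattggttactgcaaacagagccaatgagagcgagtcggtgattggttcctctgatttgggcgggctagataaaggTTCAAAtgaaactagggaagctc
Cdk1, chr10:69352913-69353162, minus strand: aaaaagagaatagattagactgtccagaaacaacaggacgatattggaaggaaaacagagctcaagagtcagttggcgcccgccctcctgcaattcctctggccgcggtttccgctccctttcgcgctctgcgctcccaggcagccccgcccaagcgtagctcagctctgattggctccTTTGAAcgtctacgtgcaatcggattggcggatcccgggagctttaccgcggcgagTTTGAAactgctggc
The match nearest to the start begins 98 bases before it in Mki67, 23 in Top2a and 15 in Cdk1.

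Hedgehog pathway genes were lower in Merkel cells by this control. Of 14 members, all tested, 7 fell and 1 rose, with a median of -0.99. Among all tested genes 5.24% were called lower and 6.6% higher, and the median was -0.16. Ptch1, a receptor and target of the pathway, stood at 65.11, 32.94 and 49.49 TPM in Merkel libraries, 167.23, 71.4 and 130.4 TPM in second basal libraries and 71.29, 24.78 and 55.03 TPM in first basal libraries. Gli1, the target transcription factor, stood at 12.39, 6.17 and 10.38 TPM, 27.79, 15.78 and 24.64 TPM, and 11.9, 6.62 and 9.8 TPM in that order. Number 2 was low for both targets in every group, and within each number the second basal library was the highest of the 3. The log2 fold changes against the second basal libraries were -1.27 ± 0.13 for Ptch1 and -1.17 ± 0.13 for Gli1, and against the first they were 0.04 and 0.01. Second minus first was 1.31 ± 0.07 and 1.18 ± 0.07 (limma adjusted p = 0.011 for each). Cdon, a coreceptor, fell by 1.88 ± 0.14 against the second and was at -1.77 against the first, and Hhip, the decoy receptor, rose by 2.41 ± 0.15 and 2.53. Hhip was tested only through the Merkel libraries, so the filter set its direction. With median-ratio scaling 2 members fell and with quantile normalization 4.

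Of 30 listed hair follicle genes 29 were tested and 1 was called between Merkel and second basal libraries. Over all tested genes 6.6% were called higher and 5.24% lower. Without number 2 or with median-ratio scaling 4 hair follicle genes were called higher, and 3 without mitochondrial and small RNA genes. Krt79, a keratin of the follicle canal, was the called gene, at 427.56, 705.16 and 499.5 TPM against 166.75, 225.12 and 147.93 TPM (log2 fold change 1.58 ± 0.14). Krt17, a follicle keratin, stood at 1671.44, 1783.13 and 1916.91 TPM against 1638.26, 1526.81 and 1949.23 TPM (0.08 ± 0.15), and in first basal libraries at 657.86, 739.24 and 798.81 TPM. Krt17 was thus higher in every second than in every first basal library, by 1.22 ± 0.08 (adjusted p = 0.011). Of the 29 members, 6 were called higher and 2 lower in second basal libraries by the test of second minus first. Over all genes in that test 0.723% were called higher and 3.61% lower. Without number 1 that test had 0 genes at an adjusted p under 0.05, and without number 3 it had 1. How many of all genes separated the second from the first basal libraries was not counted.

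Other signalling pathways held changes in both directions. Of 29 tested Wnt genes 9 fell and 6 rose, beside 5.24% of all tested genes called lower and 6.6% called higher. Wnt3a fell by 1.98 ± 0.15, and the ligands Wnt3, Wnt4, Wnt6, Wnt7a, Wnt7b, Wnt10b and Wnt16 fell by 1.02 to 1.60. The Wnt antagonists Wif1 and Notum rose: Wif1 stood at 16.67, 16.7 and 16.2 TPM against 1.38, 0.44 and 0.76 TPM (log2 fold change 3.27 ± 0.16), and Notum rose by 1.82 ± 0.14. Nkd1 and Nkd2, intracellular antagonists, rose by 1.72 and 1.68, Wnt5a by 2.00 ± 0.15 and Wnt11 by 1.01, and Lef1, a nuclear effector, fell by 1.35. With median-ratio scaling or quantile normalization 5 Wnt genes fell. Leaving out 1 number ended the call of Wnt3 (number 1), of Wnt6, Wnt7b and Wnt10b (number 2) and of Wnt11 (number 3).

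Of 17 tested Notch genes 4 rose and 4 fell, and with median-ratio scaling 5 rose and 2 fell. The filter set the direction of 6 of the 17, tested only through the Merkel libraries, Dll3, Hey2 and Mfng among them. Dll3, a divergent ligand, stood at 23.1, 17 and 19.43 TPM against 0.33, 0.21 and 0.03 TPM (4.13 ± 0.15), and Hey2, a target, and Mfng, a glycosyltransferase that modifies the receptors, rose by 2.97 ± 0.14 and 2.87 ± 0.16. The receptor Notch1 and the ligands Dll1 and Jag2 fell by 1.25, 1.16 and 1.19. Of 12 tested FGF genes 1 rose, the ligand Fgf7 (1.39), and 2 fell, the receptors Fgfr3 by 1.52 ± 0.12 and Fgfr2 by 1.34 ± 0.13. Fgf7 was tested only through the Merkel libraries, so the filter set its direction. Of 21 tested BMP and TGF-beta genes 16 were not called, with a list median of 0.29, and 2 of the 21 were tested only through the Merkel libraries. The antagonist Nog and the target Id2 rose by 1.33 and 1.01, and Id2 lost its call without number 3 (0.88). The receptors Bmpr1b and Tgfbr2 and the ligand Bmp2 fell by 1.65 ± 0.14, 1.30 ± 0.13 and 1.25. Beside the Notch, FGF, BMP and TGF-beta counts, 6.6% of all tested genes were called higher and 5.24% lower. The annotated span of Fgfr2 covers other tested genes, so its value is uncertain.

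Immediate early genes, which are known to respond quickly to stress and handling, were not called higher in Merkel cells. Of 22 listed, all tested, 5 fell and none rose, with a median of -0.70. Among all tested genes 5.24% were called lower, and the median was -0.16. Of the 22, 8 fell without number 1, 3 without number 2 and 4 with median-ratio scaling. Fosb stood at 78.49, 54.82 and 67.34 TPM against 263.03, 266.72 and 255.16 TPM (log2 fold change -1.97 ± 0.14). Fos stood at 1131.38, 549.88 and 959.54 TPM against 1420.74, 1241.45 and 1487.99 TPM (-0.71 ± 0.18, not called). None of 10 heat shock genes was called by limma, 5 had an unadjusted p under 0.05, and 1 was called in some alternatives. Of all 13724 tested genes, 7393 had an unadjusted p under 0.05. Hspa8 stood at 700.09 to 883.98 TPM in Merkel and 688.05 to 956.49 TPM in second basal libraries. The part of cell handling in these values was not tested. Of 13 mitochondrial messages mt-Nd5, mt-Nd6 and mt-Nd4 fell, and mt-Nd4 lost its call without number 1 (-0.99); mt-Nd5 and mt-Nd6 overlap on opposite strands. mt-Nd3 stood at 3232.23, 2475.22 and 2488.88 TPM against 2176.72, 20.47 and 1292.14 TPM. The upward calls of mt-Nd3 (2.79) and mt-Atp6 (1.38) rest on the low second basal library of number 2: without it they were at 0.76 and 0.36 without a call, and both calls also ended without the block. Of 22 Polycomb genes Mtf2 and Pcgf2 fell, by 1.05 ± 0.13 and 1.10 ± 0.14, beside 5.24% of all tested genes called lower. Neither kept the call with median-ratio scaling or quantile normalization, nor Mtf2 without number 1 (-0.98) or without mitochondrial and small RNA genes (-0.99).

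Of 20 listed markers of fibroblasts and dermal papilla, 16 were tested, 12 rose and none fell, and 8 of the 16 were tested only through the Merkel libraries. Col3a1, a fibrillar collagen, stood at 36.09, 29.21 and 24.41 TPM against 1.05, 0.97 and 0.71 TPM (log2 fold change 4.0 ± 0.14). Corin, a protease of the dermal papilla, stood at 8.37, 10.33 and 8.48 TPM against 0.13, 0.1 and 0.13 TPM (3.16 ± 0.15). Pdgfra, Crabp1, Alx4 and Twist1 rose by 2.80, 2.72, 3.54 and 2.44. Dcn stood at 170.06, 93.48 and 141.87 TPM against 242.09, 94.18 and 191.35 TPM, with overlapping groups and no call. Summed over the list, the level was 345 to 547 TPM in Merkel libraries, 289 to 391 in second basal and 408 to 928 in first basal libraries, and Twist2 and En1 were at 0 in all second basal libraries. These markers move with the Merkel group as the neurosecretory and Wnt antagonist genes do, and their part in those results was not tested.

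Melanocyte genes were at nearby levels in Merkel and second basal libraries. All 10 were tested and none was called by limma, with a median of 0.46. Of the 10, 6 had an unadjusted and 5 an adjusted p under 0.05 at a smaller fold than a call needs. These counts are near the background, since 7393 and 6448 of all 13724 tested genes had such p-values at any fold. At most 1 melanocyte gene was called in the alternatives that kept the second basal libraries as the only control. Dct, a melanin enzyme, stood at 87.84, 63.28 and 74.6 TPM in Merkel libraries, 53.14, 68.29 and 47 TPM in second basal libraries and 10.01, 14.71 and 5.54 TPM in first basal libraries. The Merkel and second basal groups overlapped, and both lay above the first basal group. Second minus first was 2.44 ± 0.16 for Dct (adjusted p = 0.011), and 9 of the 10 genes were called higher in second than in first. Of all genes in that test 0.723% were called higher. Against the first basal libraries all 10 were called higher in Merkel cells. The summed level was 169 to 243 TPM in Merkel, 121 to 175 in second basal and 17.6 to 38.8 in first basal libraries, and no listed gene was at 0 in all Merkel libraries.

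Macrophage and Langerhans cell genes showed the reverse. Of 12 listed, 11 were tested against the second basal libraries and none was called by limma (1 at an unadjusted p under 0.05), with a median of 0.13, whereas against the first basal libraries 11 of 12 fell, with a median of -2.93. Cd74, the invariant chain of MHC class II, stood at 23.34, 117.56 and 90.37 TPM in Merkel libraries, 23.15, 216.85 and 46.36 TPM in second basal libraries and 309.54, 885.27 and 683 TPM in first basal libraries. Every first basal library lay above all others, and second minus first was -3.19 ± 0.39 (adjusted p = 0.016). The summed level was 194 to 348 TPM in Merkel, 129 to 501 in second basal and 1048 to 1870 in first basal libraries. Epcam, the member that was called higher against the first, is an epithelial gene as well. Interferon and MHC class I genes moved in the same way: 2 of 18 tested, Irf1 and Cxcl10, fell against the second basal libraries, and 13 of 19 against the first. Over all tested genes 5.24% were called lower against the second basal libraries and 7.33% against the first. B2m, the light chain of MHC class I, stood at 59.7, 54.49 and 77.41 TPM in Merkel, 53.23, 67.25 and 56.85 TPM in second basal and 227.72, 197.67 and 251.09 TPM in first basal libraries.

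**Figure D4:**
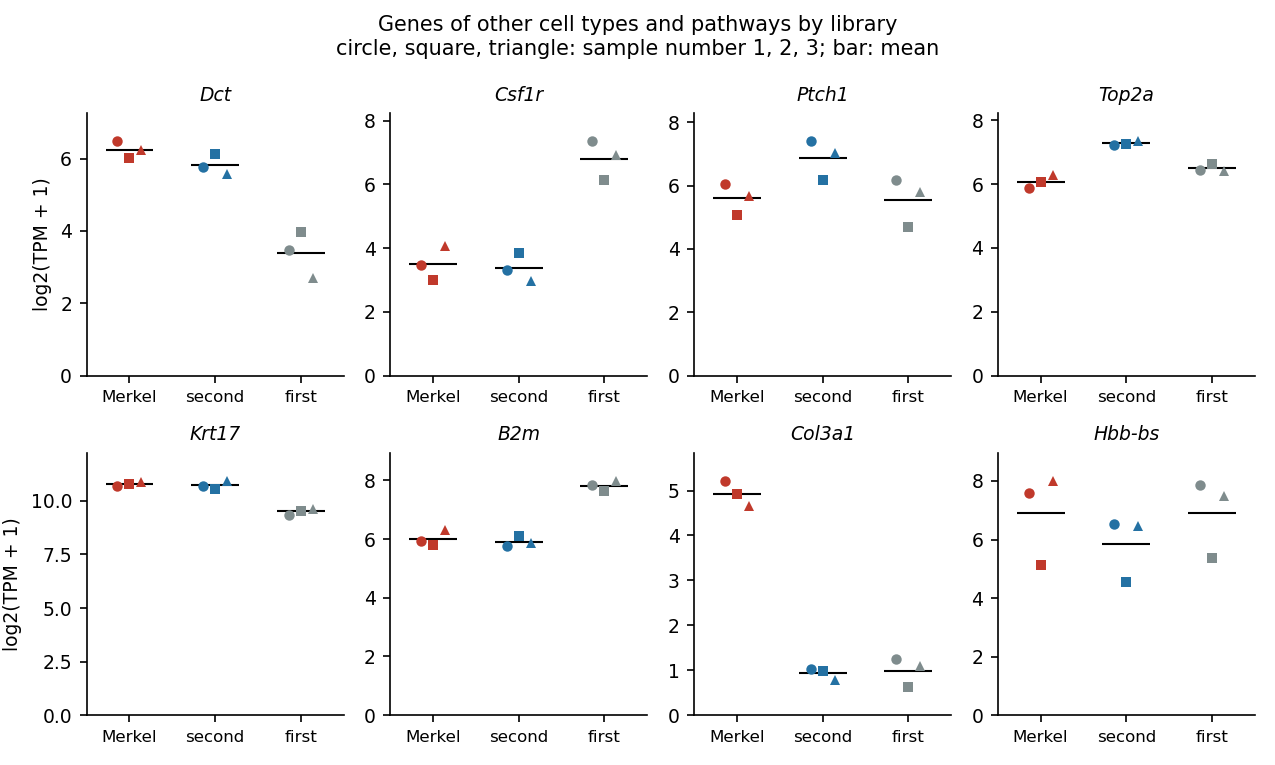
Genes of other cell types and pathways in each library, as log2(TPM + 1), with points for sample numbers 1, 2 and 3 and a bar at the mean of each group (n = 3). Dct and Krt17 are at similar levels in Merkel and second basal libraries and lower in first basal ones, Csf1r and B2m are high in first basal libraries alone, Ptch1 is highest in the second basal library of each number, and Hbb-bs is lowest in number 2 of every group.

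Haemoglobin genes were lowest in number 2 of every group: Hbb-bs stood at 192.07, 34.12 and 254.93 TPM in Merkel libraries and 91.59, 22.53 and 86.14 TPM in second basal libraries (log2 fold change 1.06 ± 0.17, adjusted p = 0.00053). The Hbb-bs groups overlapped, and neither it nor Hbb-bt (1.20 ± 0.20) was called without the pairing by sample number or without number 3 (0.82 and 0.86). Of 14 sensory neuron genes 3 were tested, 2 of them only through the Merkel libraries, and all 3 rose, namely Avil, Tubb3 (4.30 ± 0.17) and Uchl1 (4.16 ± 0.16), while the nociceptor genes Scn10a and Mrgprd were at 0 in every Merkel library. Pecam1 (1.08 ± 0.15) was the 1 endothelial gene of 10 to be tested, only through the Merkel libraries, and stood at 2.25 TPM or less. Its call was lost without number 3 and with quantile normalization (0.82). Of 7 tested Schwann cell genes S100b (1.06 ± 0.15) and Ncam1 (1.39 ± 0.13) rose, and of 5 tested smooth muscle and pericyte genes Rgs5 rose (1.63 ± 0.17). The medians of these lists were -0.03 and 0.52, and 6.6% of all tested genes were called higher. With lists this small, such counts say little about the lists. S100b and Rgs5 were tested only through the Merkel libraries, so the filter set their direction. S100b also lost its call with quantile normalization (0.77). None of 3 tested T cell genes was called by limma (1 at an unadjusted p under 0.05).

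The basal libraries also differed from each other. Of 14386 genes tested, 104 were higher in the second (0.723%) and 519 lower (3.61%). These counts rest on numbers 1 and 3: without number 1 limma called 0 genes higher and 0 lower (3030 had an unadjusted p under 0.05), and without number 3 it called 1 higher and 0 lower (2939 unadjusted). Because a Merkel library of a number is the same in both contrasts, this is also the test of whether the control changes a gene. Against the first basal libraries 1050 of 13870 tested genes were called higher (7.57%) and 1017 lower (7.33%) in Merkel cells.

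Among genes called in Merkel against second basal libraries, those with the largest second minus first differences included genes of leukocytes. Cyba, a subunit of the phagocyte oxidase, stood at 16.88, 10.9 and 21.18 TPM in Merkel, 6.83, 4.01 and 5.02 TPM in second basal and 73.51, 21.32 and 50.76 TPM in first basal libraries. Its log2 fold change was 1.44 ± 0.16 against the second and -1.40 against the first. Cytip, an adaptor of haematopoietic cells, was at 2.06 ± 0.24 and -0.52, Hexa, a lysosomal enzyme, at 1.03 ± 0.22 (0.69 and no call without number 3) and -1.15, and Gng2, a G protein subunit, at 4.46 ± 0.16 and 2.19. Second minus first was -2.84, -2.58, -2.18 and -2.28 for Cyba, Cytip, Hexa and Gng2 (adjusted p = 0.012, 0.025, 0.025 and 0.023). Their part in the macrophage difference was not tested. Among lower genes, Cysltr1, a leukotriene receptor, was at -1.16 ± 0.16 and -2.72, and Fam189a2 at -1.20 ± 0.17 (no call without number 2) and -2.53, so that the first basal libraries gave the larger decrease.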

How the data were processed

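Per the labels' protocols, total RNA from sorted neonatal epidermal cells was extracted with a micro kit and made into stranded libraries that were read in pairs. Trimmomatic, STAR, RSEM and build mm10 are named in the submitters' processing notes, without versions; annotation and strand setting: not given in the sources used here. Per gene, the authors deposited TPM in 1 table with 49671 Ensembl identifiers and 1 EGFP row. GENCODE M21 (GRCm38, the same build as mm10) gave symbols for 49412 of them and coordinates, and 259 had none. Of 126 named genes, 25 overlap another tested gene, whose reads may have been divided between them. TPM is not a count, so the precision of low values is unknown.

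Values were transformed to log2(TPM + 1), which understates changes of genes near 0. Genes that reached 1 TPM in any 3 of the 6 libraries were fitted by limma (version 3.58.1, R version 4.3.3) with sample number as a block and a trended variance, two-sided, Benjamini-Hochberg adjusted over all 13724 genes. The same fit was made for the other pairs of groups; for second against first, genes at 1 TPM in at least 3 of 9 libraries were used. The numbers pair the libraries: deviations from the group means correlated at 0.334, 0.261 and 0.141 for the same number and at -0.288 to 0.012 for different numbers, between Merkel and second basal libraries. The fit was run on simulated data for this comparison with 200 changed genes among 13356, and all were recovered with 0 false calls. Recovery was not tested for genes near the call size or near the filter, so it is unknown for them. Tables and plots were made with Python 3.11.15, pandas 2.3.3 and matplotlib 3.10.9.

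The members and the gene lists were chosen with earlier results of these data known; lists are described by counts and medians and were not tested. Named genes are the 15 highest and 15 lowest called genes by fold change whose higher group averaged at least 10 TPM and whose groups were separated (predicted genes, pseudogenes, mitochondrial genes and small RNAs left out), the sort genes and markers, from each list its most abundant member and the 3 called members of lowest adjusted p, and the 5 higher and 5 lower genes with the largest second minus first difference. Other list members are named as examples, and some genes the rule names are not reported here. Alternatives changed the block, pseudocount, filter, scaling, features in the total, variance trend, control and each sample number.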

Additional observations from a re-analysis of the deposited data

How the results depend on the processing

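The counts of genes higher and lower in Merkel cells than in second basal libraries stayed within 1.5 times 906 and 719 under every alternative tried except these: 476 higher with a filter at 5 TPM, and 388 lower with median-ratio scaling or 1244 lower with a pseudocount of 0.1. Leaving out each sample number gave 854 to 1020 higher and 655 to 881 lower. Without the replicate block 892 were higher and 713 lower; of 184 called list members, 4 lost the call without the block: Hbb-bs, Hbb-bt, mt-Nd3 and mt-Atp6. Second against first basal libraries gave 87 higher and 478 lower without the block, 0 to 130 higher and 0 to 637 lower when a number was left out, 0 and 0 without number 1, and 1 and 0 without number 3.

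Changes of sign, as log2 fold changes, were these. With the first basal libraries as control: Sox4 0.61, Cacnb3 0.21, Krt1 0.02, Ptch1 0.04, Fst 0.15, B2m -1.81, Dcn 1.01, Erbb3 0.17, Cd74 -3.16, Hba-a1 -0.26, Mcam 0.46, Cyba -1.40, Cytip -0.52, Hexa -1.15 and Gli1 0.01. With the mean of both basal libraries: Sox4 0.14, Cacnb3 0.01, B2m -0.86, Dcn 0.35, Erbb3 0.06, Cd74 -1.57, Mcam 0.09 and Hexa -0.06. With median-ratio scaling: Cacnb3 0.02, Krt1 0.19, Hspa8 0.16 and Erbb3 0.16. With quantile normalization: Cacnb3 0.03, Krt1 0.03, Hspa8 0.10 and Erbb3 0.13. Without mitochondrial and small RNA genes: Krt1 0.06, Hspa8 0.03 and Erbb3 0.03. When a number was left out, Rab3d ranged from -0.02 to 0.20, Hspa8 from -0.19 to 0.14, Erbb3 from -0.16 to 0.07, Krt1 up to 0.03, B2m from -0.07 to 0.30 and Cd74 from -0.43 to 0.48. The cause was not tested. Apart from Ptch1, Gli1, Cyba, Cytip and Hexa, none of these genes was called against the second basal libraries. Median-ratio scaling kept the call or its absence, with the sign, for 113 of 126 named genes, quantile normalization for 115, the pseudocount of 0.1 for 126 and the fit without a variance trend for 126. With 3 pairs and TPM of unknown depth, small differences of low genes cannot be resolved.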
